A study of Mus musculus with 182 samples.

Results

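The genes of the cytosolic ribosomal proteins were followed in 182 single germinal centre B cells of the mouse. They were taken by symbol, as every row of the normalized table named Rpl or Rps with a number, together with Rpsa, Rplp0, Rplp1 and Rplp2. Kinases of the Rps6k family, Rps19bp1 and pseudogenes with -ps in the symbol were left out. This gave 84 members among 17034 gene symbols. Of these, 77 were core genes, with 46 of the large and 31 of the small subunit, and 7 were copies or paralogs of a core gene (Rpl3l, Rpl7l1, Rpl22l1, Rpl36al, Rps4l, Rps27l and Rps27rt). Fau, which encodes a small subunit protein under another name, is no member and was used for comparison.

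All cells belong to 1 group. C57BL/6 mice had been immunised with 100 μg NP(23)-KLH, a hapten on a carrier protein, in 50% alum with 1 μg LPS, and spleen cells were sorted at day 13 by B220, Fas and GL7, with NP binding named in the labels. Each cell was captured on a microfluidic chip and made into 1 library. No animal is named, so the cells are 1 biological sample, no p-value was computed, and correlations across cells are descriptions.

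A ribosome joins a small subunit, which reads the messenger RNA, to a large subunit, which forms peptide bonds, and nearly all proteins of a subunit are needed in equal number. In mammals most of these messengers start with a run of pyrimidines, the 5′ terminal oligopyrimidine (TOP) start, through which their translation is controlled together by mTOR. Myc is known to raise ribosome production, and in the germinal centre it marks B cells that have been positively selected.

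The columns formed 2 sets that were found from the values, cells 1 to 96 (set 1, 96 cells) and cells 97 to 182 (set 2, 86 cells). Values of a set share a ladder by rank, and each gene has its own lowest value, its floor, in each set. Because the floors differ between the sets, a correlation over all 182 cells also contains the difference between sets. Most are therefore given within both sets, and some further values are given over all cells only and named so. Sequencing depth is unknown. The number of genes above their floor ran from 980 to 5149 per cell, with medians of 2666 in set 1 and 2188.5 in set 2. Markers of B cells were found in 90.7% to 98.9% of cells and those of germinal centre B cells in 45.1% to 77.5%. Of markers for other cells, Lck was found in 54.4% and Igj in 55.5% of cells, the highest of their lists. Cd3d, the defining T cell gene, was found in 0% and Sdc1, the plasma cell marker, in 1.1%, the lowest of theirs. The median was 0.824% over the 4 of 8 T cell markers that had rows, and 13.2% over 5 of 6 plasma cell markers. Across cells, the summed T cell markers had rho -0.15 in set 1 and -0.27 in set 2 with the ribosomal protein score used below, the plasma cell markers 0.02 and 0.14, the myeloid markers -0.11 and -0.11, and the germinal centre B cell markers -0.11 and -0.24. Lck alone had -0.15 and -0.23. A score of 9 germinal centre B cell genes had -0.07 and -0.09. With the transcript length balance used below held constant, that score had 0.16 and 0.26. The part of these markers in the results was not tested.

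The start sites were read first, since they carry the shared control element of the family. A C at the annotated start followed by at least 4 more C or T bases, on the strand of the gene, was present at 14 of the 63 members with a promoter sequence (22.2%) and at 3.01% of the 27025 genes with one. When the run could begin at any base within 10 bases of the start, these shares were 60.3% and 34.4%. The runs at the start were 5 to 13 bases long. The windows below, from RefSeq on build GRCm38.p6, show 20 bases before and 20 bases from the start of a well detected gene of each subunit, of a stalk protein and of the gene with the longest run, 5′ to 3′ on the strand of the gene, with the pyrimidine run at the start in capitals.
Rpl35 (chr2:39005112-39005151, minus strand): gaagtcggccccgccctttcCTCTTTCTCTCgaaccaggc
Rps18 (chr17:33955646-33955685, minus strand): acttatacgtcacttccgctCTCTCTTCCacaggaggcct
Rplp2 (chr7:141447631-141447670, plus strand): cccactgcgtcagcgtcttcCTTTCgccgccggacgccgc
Rpl15 (chr14:18270967-18271006, minus strand): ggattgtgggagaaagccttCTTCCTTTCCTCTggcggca
Genes with such a run were found both in most cells and in few. Rps18 was found in 79.1% of cells, Rplp2 in 69.8%, Rpl35 in 61.0% and Rpl15 in 2.75%.

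Members were far more often detected than other genes, yet they differed widely among themselves. Detection was set at a value of 1 or more. In set 1, 1873 to 1946 genes per cell reached this value, with a median of 1904. The number in set 2 was 995 to 1741, with a median of 1690. As values share a ladder by rank, detection was close to a cut on rank, most of all in set 1. A value below 1 does not mean that a gene was absent. So defined, 43 of the 84 members were found in at least 50% of cells, against 3.89% of all rows, and 16 in at least 90%, against 0.44% of all rows. At the other end, 18 members were found in under 10% of cells, as were 68.2% of all rows. Between 19 and 58 members were detected per cell. The median was 45 in set 1 and 34.5 in set 2, which also had fewer genes above floor and fewer at 1 or more.

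**Figure D1:**
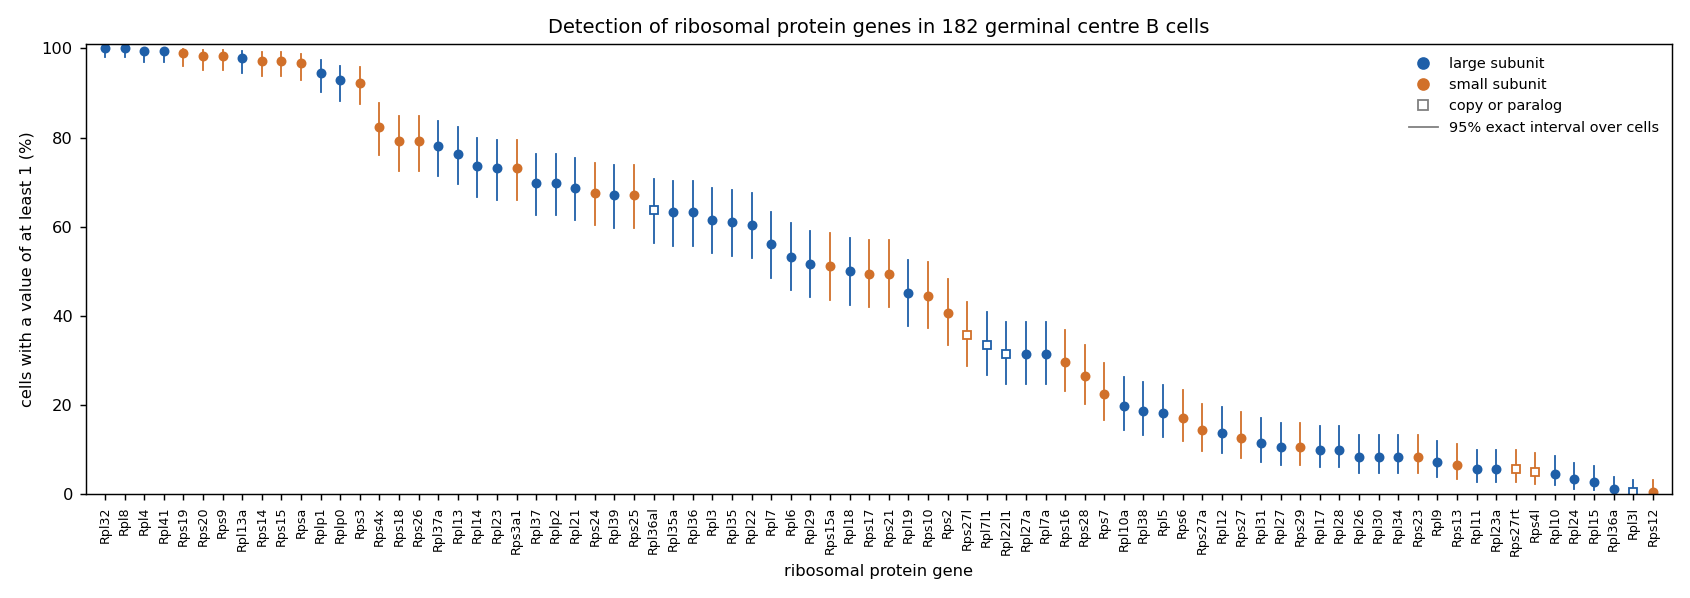
Share of the 182 cells with a value of at least 1 (vertical axis, percent) for 80 of the 84 members (horizontal axis), with exact 95% intervals over cells as vertical lines. Blue marks the large and orange the small subunit, and open squares mark the 7 copies and paralogs. Detection falls gradually from 100% for Rpl8 and Rpl32 to 0.549% for Rps12.

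The highest values belonged to a few genes of both subunits. All values are the deposited normalized signal, and whether they are scaled by gene length is not given, so the order is one of deposited values only. Rpl41, which encodes the shortest ribosomal protein, ran from 0.367 to 18623 with a median of 1615 and had the seventh highest mean of all rows. Rpl8, a protein near the peptidyl transferase centre, ran from 3.26 to 11047 with a median of 924. Rpl32 ran from 1.59 to 18729 with a median of 849. Rpl8 and Rpl32 were the only members detected in all 182 cells (exact 95% interval 98.0% to 100%). The acidic stalk protein Rplp1 had a median of 644 (0 to 6780) and Rps20, of the small subunit head, a median of 620 (0 to 8423). Of the 25 rows with the highest means, 8 were members. Within each gene the spread over cells covered several orders of magnitude, so the medians of neighbours in this order lie far within each other's ranges.

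The lowest 5 core members by median were Rps12, Rpl15, Rpl36a, Rpl24 and Rpl10. Rps12 was above 1 in 1 of 182 cells (0.549%, exact interval 0.0139% to 3.02%), with a highest value of 2.75. Rpl36a was detected in 2 cells, Rpl15 in 5, Rpl24 in 6 and Rpl10 in 8, with highest values of 3.74, 39.2, 20.4 and 85.5. These genes encode ribosomal proteins that every ribosome is known to carry, and their rows were nevertheless near the floor in nearly all cells. Rpl5 and Rpl11, which with 5S ribosomal RNA form the particle that restrains Mdm2, were detected in 18.1% and 5.49% of cells. Rps6, the phosphorylation target of S6 kinase, was detected in 17.0%, although its highest value was 4058.

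The 2 subunits had like shares of widely detected genes but differed in level, and no test of a difference was made. Of core large subunit genes 25 of 46 were found in at least 50% of cells, and of core small subunit genes 17 of 31. The median share of cells was 52.5% for large and 67.0% for small subunit genes. Fewer small subunit genes were rarely detected, with 3 of 31 found in under 10% of cells against 12 of 46. The median over genes of the median value was 1.70 for core large and 8.46 for core small subunit genes, and that of the mean value 14.8 and 63.8. With the copies and paralogs included, the medians of the median value were 1.23 and 0.80, in the opposite order. Among the 3 stalk genes, Rplp0 and Rplp1 were found in 92.9% and 94.5% of cells and Rplp2 in 69.8%. Rps27a, whose product is made as a fusion with ubiquitin, was found in 14.3% of cells, and Fau, whose product is fused to a ubiquitin-like protein, in 56.0%.

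Many members have near-identical copies in the genome, most of them processed pseudogenes. A copy was counted where an annotated transcript of another gene matched at least 80% of the coding part at 95% identity or more. Among the 83 members with a coding transcript in GENCODE M21, the number of copies ran from 0 to 57 with a median of 5, and 556 of the 587 member and copy pairs involved a pseudogene. Rpl21 had 57 copies, Rpl7a 32, Rpl29 28 and Rps2 and Rps12 23 each. Rpl8 and Rps3 were among the core members with 0.

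Detection was lower for members with more copies. Of 12 core members with at most 1 copy, 10 were found in at least 50% of cells and 0 in under 10%. Among 17 core members with 10 or more copies, 5 were found in at least 50% and 7 in under 10%. Across the 77 core members the number of copies and the share of cells had a Spearman rho of -0.45, against 0.24 for transcript length. Genes are not independent points, copies come with gene families, and none of the sources used here says how reads were shared between copies. The part of copy number in the low rows was not tested, and Rpl24, with 4 copies, and Rpl36a, with 5, were among the lowest members too.

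Several rows under other names match a member's sequence, either as a copy in this sense or with at least 80% of the row's own transcript matching the member's at 95% identity or more. Some held values where the member's own row was near its floor. Rpl26 on chromosome 11 (build GRCm38, 68901583 to 68906989) was detected in 15 of 182 cells (8.24%), with a median of 0.274 and a highest value of 82.9. It was above its floor in 91.8% of cells, mostly at values below 1. The row Gm15772, a processed pseudogene identical to Rpl26 at 99.5% of bases, was detected in 179 cells (98.4%), with a median of 285 and a highest value of 4486, and lay above Rpl26 in 179 cells. Rpl34 was also detected in 15 cells, with a median of 0.137, and its 99.4% identical pseudogene Rpl34-ps1 in 114 cells with a median of 14.7. Rps23, a protein of the decoding centre, was found in 15 cells, while Gm5148, a gene identical to it over 92.8% of the coding part, was found in 122. When a match counted as the member, Rpl26 was found in 98.9% of cells, Rpl34 in 63.2% and Rps23 in 67.6%, and 46 members passed 50% in place of 43.

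One such match was the row with the highest mean in the whole table. Mir682 is annotated as a microRNA hairpin at chr13:75645046-75645141, plus strand, on build GRCm38.p6. All but 1 of its 96 bases equal bases 151 to 246 of the coding part of Rpl37a, a gene on chromosome 1. The 2 sequences are printed 5′ to 3′ because they show how nearly this row equals coding sequence of a member, with the 1 differing base in capitals (C48T, the hairpin's base, its position from the hairpin's 5′ end, and the base in Rpl37a).
Mir682 hairpin (RefSeq): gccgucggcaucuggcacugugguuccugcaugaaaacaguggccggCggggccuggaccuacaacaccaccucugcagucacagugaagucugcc
Rpl37a coding stretch (GENCODE M21): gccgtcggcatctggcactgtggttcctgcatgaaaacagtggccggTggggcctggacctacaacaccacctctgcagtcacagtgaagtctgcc
The Mir682 row ran from 0 to 44523 with a median of 23652, was detected in 170 cells (93.4%), and was the highest row of the table in 74 of 182 cells. In set 1 its median and its highest value were the same, at 35649. Rpl37a ran from 0 to 730 with a median of 30.1 and was detected in 142 cells (78.0%). The 2 rows moved together across cells, with rho 0.56 in set 1 and 0.74 in set 2. Mir682 was above Rpl37a in 165 cells.

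The row Gm13826, which RefSeq lists as Rpl37rt, behaved alike towards Rpl37. It matches the coding part of Rpl37 at 99.7% of bases, had a median of 103 against 11.1 for Rpl37, and was above Rpl37 in 163 cells, with rho 0.55 and 0.74 within the sets. Of 23 pairs of a member and a matching row, 10 had rho over 0.4 in both sets and 9 had the matching row above the member in over 50% of cells. The 9 include comparisons near the floor, such as Gm6525, above Rpl36a in 175 cells but detected in 6. Rpl30 and Gm12191 had the highest rho, at 0.90 and 0.95, but were detected in only 15 and 61 cells, with medians of 0.0287 and 0.0144. At least 1 of these 2 rows was detected in 66 cells, so their rho rests largely on values below 1. Other pairs did not move together, such as Rpl29 with Uimc1 (0.07 and -0.01) and Rpl21 with BC004004 (-0.11 and 0.03). Levels of the members in these pairs are therefore uncertain.

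**Figure D2:**
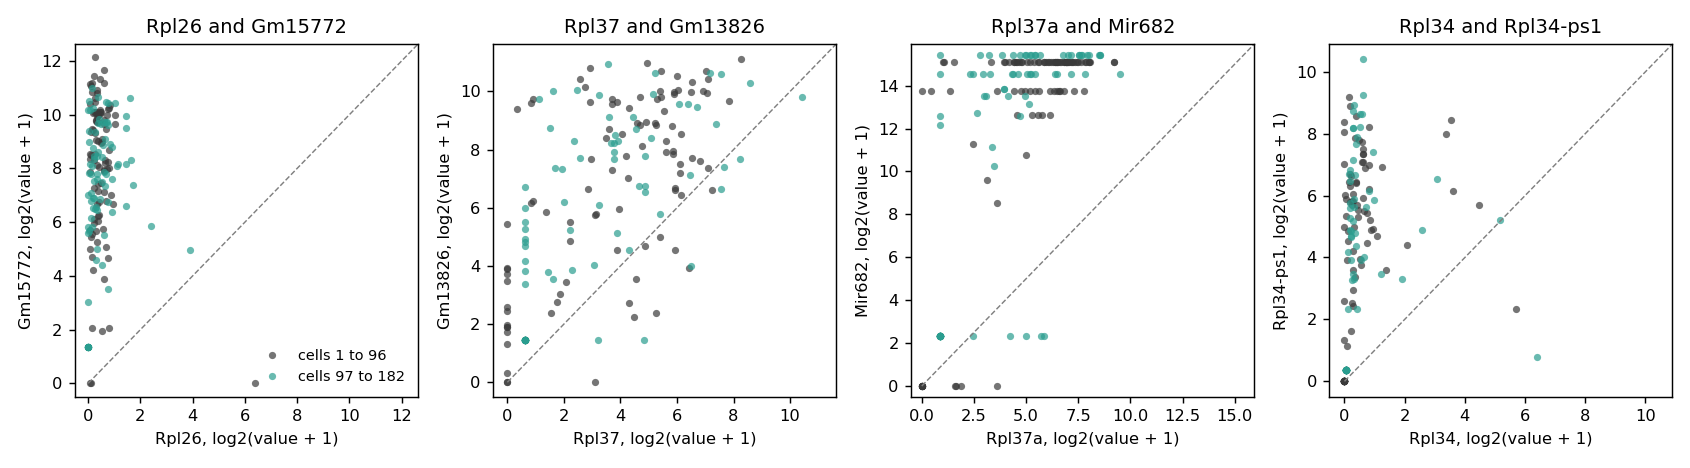
Each panel plots the log2(value + 1) of a row matching a member (vertical axis) against the member's own row (horizontal axis), 1 point a cell, dark for cells 1 to 96 and green for cells 97 to 182, with a dashed line of equal values. Most cells lie above the line in all 4 panels, at 179 cells for Gm15772 and 165 for Mir682.

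Of the 7 copies and paralogs that are members, 3 were found in under 10% of cells, 3 in 31.3% to 35.7% and 1 in 63.7%. Rpl3l, the form of Rpl3 known from muscle, was detected in 1 cell, and Rpl3 in 112. Rps4l, a paralog row of Rps4x, was detected in 9 cells, 1 of them at 7457, against 150 for Rps4x. Rps27rt, a retrogene whose coding part equals that of Rps27, was detected in 10 cells and Rps27 in 23, with rho 0.83 and 0.69 within the sets. Rps27l, known as a p53 target, was found in 65 cells (35.7%, 28.8% to 43.1%), more than Rps27, and both together in 7. Rpl22l1 was found in 57 cells and Rpl22, whose protein is known to repress Rpl22l1, in 110, with 38 cells holding both and rho 0.01 and 0.04 within the sets. Rpl7l1 was found in 61 cells and Rpl7 in 102, with 37 in common. Rpl36al was found in 116 cells (63.7%, 56.3% to 70.7%) with a median of 36.5, while Rpl36a, which encodes nearly the same protein, was above 1 in 2 cells.

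Members varied less between cells than other genes of their level. The residual of the SD of log2(value + 1) from its trend on the mean had a median of -0.25 over the 66 members that reach 1 in 10% of cells or more, and 16 of these were above 0, against 52.2% of all 5409 genes with that detection. Rpl13a (residual -1.24), Rpl21 (-1.12), Rps19 (-0.90) and Rps15a (-0.88) were among the steadiest for their level. Rpl29 (0.67), Rpl36al (0.64) and Rps27l (0.37) were among those that varied most. Rpl29 had a median of 2.77 and was detected in 94 of 182 cells, reaching 2185, and Rpl13a had a median of 130, was detected in 178 cells and had a highest value of 1194.

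The remaining relations use the same 66 members, 37 of the large and 29 of the small subunit, and leave out the other 18. The filter ran between Rpl27 and Rps29, at 10.4% of cells, and Rpl17 and Rpl28, at 9.89%. Pairs of these members had a mean rho of 0.10 in set 1 and 0.13 in set 2, where pairs of all genes with that detection had 0.01 and 0.02. Pairs within the large subunit (0.09 and 0.13), within the small subunit (0.11 and 0.14) and between them (0.10 and 0.13) were alike. Against the mean z-score of the other members, 63 of 66 had a positive rho in both sets. Of genes that are no members, 48.7% had a positive rho in both sets with the mean z-score of all 66. The closest were Rps18, a protein of the small subunit head (0.54 and 0.56), Rpl41 (0.56 and 0.52) and Rps20 (0.55 and 0.50).

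Rpsa, the small subunit protein also known as the laminin receptor, was the only member with a negative rho to the rest in both sets (-0.05 and -0.17). It was widely detected, in 176 cells, from 0 to 1162 with a median of 132. Rpsa moved with Rpl13a (0.45 and 0.50) and against Rps14 (-0.48 and -0.36), Rps25 (-0.42 and -0.50) and Rpl7 (-0.33 and -0.44). Rps9, a small subunit protein at the messenger RNA entry, was close to Rps3 (0.52 and 0.46) and Rps14 (0.52 and 0.42) and moved against Rpsa (-0.41 and -0.34). The members were thus not 1 block.

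A score was made for each cell as the mean z-score of log2(value + 1) over these members, and likewise for each subunit. Large and small subunit scores had a Spearman rho of 0.75 in set 1, 0.77 in set 2 and 0.79 over all cells, with a Pearson r of 0.76, 0.77 and 0.79. With the number of genes above floor held constant by a partial rho, the values were 0.72 in set 1 and 0.74 in set 2. Restricted to the 14 members of the score with at most 1 near-identical copy, the rho over all cells was 0.43.

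**Figure D3:**
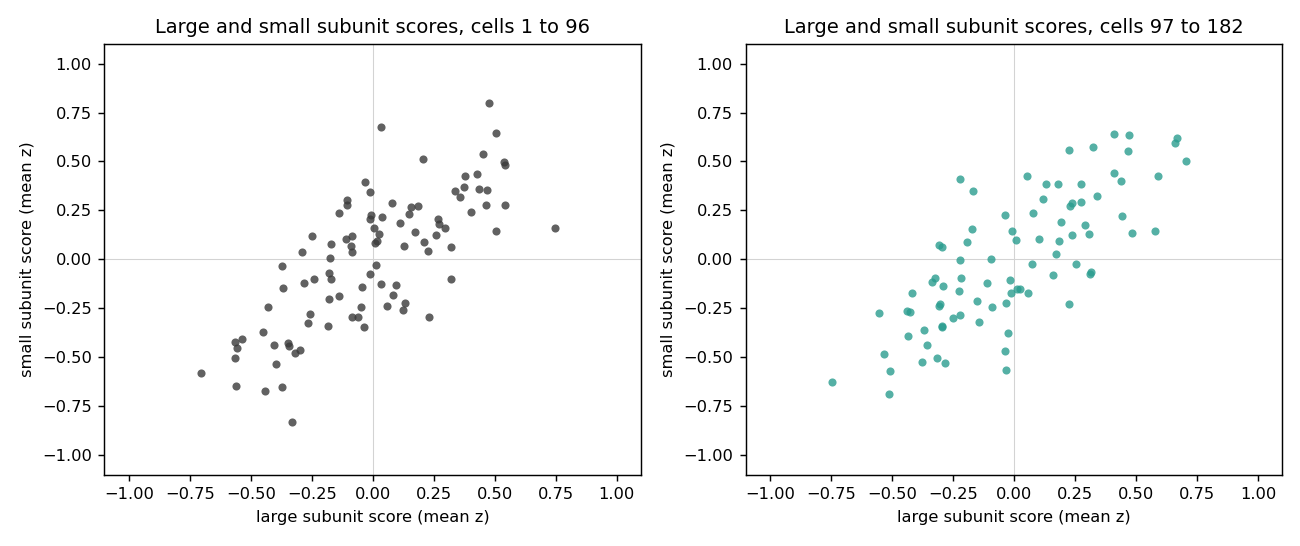
Small subunit score (vertical axis, mean z) against large subunit score (horizontal axis, mean z), 1 point a cell, for cells 1 to 96 (left) and cells 97 to 182 (right). The points rise together in both panels, with rho 0.75 and 0.77.

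The relation of other genes to the score differed with the length of their transcripts, which was looked at after the genes nearest and farthest from the score had been seen. Transcripts of the members had a median annotated length of 681 bases (271 to 3706), against 2688 over all genes with that detection. Among genes that are no members, those with transcripts under 1000 bases had a median rho with the score of 0.11 in set 1 and 0.20 in set 2. The medians fell to 0.06 and 0.11 from 1000 to under 2000 bases, 0.03 and 0.07 from 2000 to under 4000, and 0.01 and 0.03 at 4000 or more. Across these 4294 genes length and rho were related at -0.23 and -0.33.

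A balance was then taken per cell as the mean z-score of 412 short non-member genes, under 1000 bases, minus that of 1437 long ones, of at least 4000 bases. Short and long genes moved against each other (rho -0.80 and -0.60). The ribosomal protein score rose with the balance, at rho 0.41 in set 1 and 0.57 in set 2. The number of genes above floor rose with the balance more closely, at rho 0.67 in both sets. Holding the balance constant therefore also holds part of that number constant, and the 2 were not separated. Of the 66 members 51 had a positive rho with the balance in both sets, against 55.8% of all genes, and 5 a negative one, against 15.5% of all genes. Rps14 (0.59 and 0.48), Rps9 (0.61 and 0.41) and Rpl7 (0.57 and 0.47) were high among the first. The negative members included Rpsa (-0.56 and -0.57), Rpl13a (-0.23 and -0.34) and Rpl21 (-0.42 and -0.14). Rpl13a, which moved with Rpsa, and Rps14, which moved against it, thus lay on opposite sides of this balance. RNA quality is not given per cell, and the part of the balance in the relations between members was not tested beyond the partial values given beside them.

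**Figure D4:**
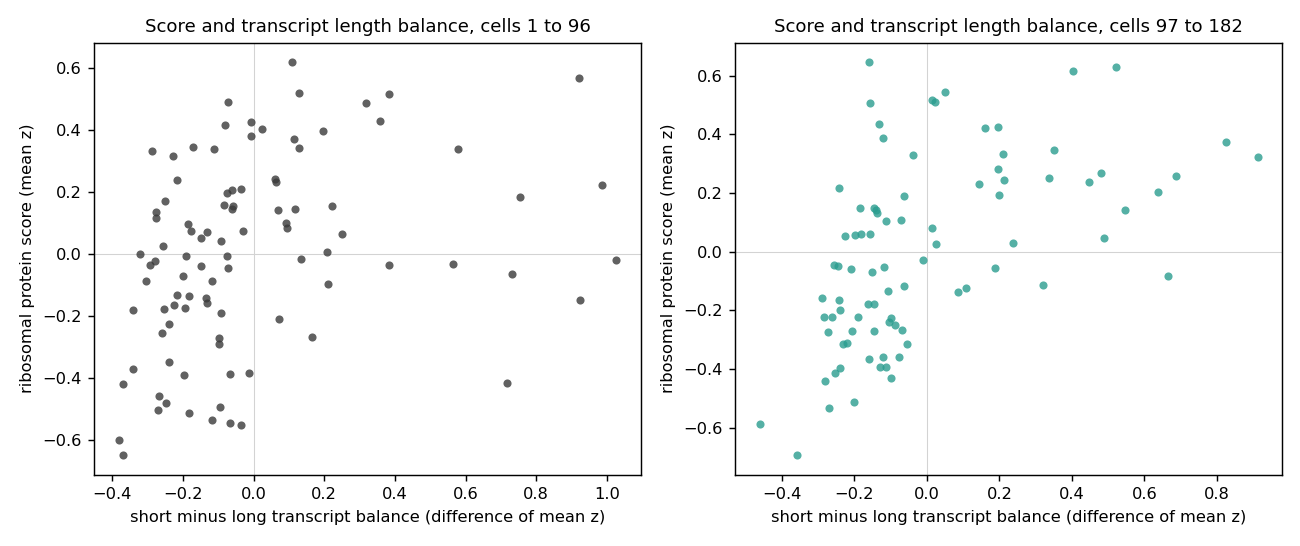
Ribosomal protein score (vertical axis, mean z) against the balance of short minus long transcripts of other genes (horizontal axis, difference of mean z), 1 point a cell, for cells 1 to 96 (left) and cells 97 to 182 (right). Scores rise with the balance, with rho 0.41 and 0.57: cells below a balance of 0 span nearly the whole range of scores, and cells at a high balance rarely have low ones.

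Malat1, a long nuclear RNA found in every cell with a median of 1847 (32.0 to 11148), was low where the score was high. The rho was -0.26 in set 1 and -0.18 in set 2, and 45 of 66 members had a negative rho with Malat1 in both sets, against 46.9% of all genes, and 7 a positive one, against 18.1%. Malat1 was itself low where the balance was high (-0.54 and -0.34). With the balance held constant its partial rho with the score was -0.05 and 0.01. Over all cells the rho was -0.18, and -0.33 with the 14 members of the score that have at most 1 near-identical copy. Of the other nuclear RNAs with values in both sets, Kcnq1ot1, found in 58.2% of cells, was also low where the score was high (-0.175 and -0.27), and Neat1, found in 16.5%, had opposite signs in the sets (0.09 and -0.13).

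Myc was found in 34 of 182 cells (18.7%, 13.3% to 25.1%), with 12 of 96 in set 1 and 22 of 86 in set 2. Cells with Myc did not stand apart in the ribosomal protein score. In set 1 the median score was -0.04 in cells with Myc (-0.54 to 0.57) and 0.00 in cells without (-0.65 to 0.62). In set 2 the medians were 0.03 (-0.36 to 0.61) and -0.05 (-0.69 to 0.65), so the groups overlapped over most of their range in both sets. The median number of members detected was 43.5 with Myc and 45 without in set 1, and 37 and 33.5 in set 2. Across cells the rho of Myc with the score was 0.09 and 0.15 within the sets. It was 0.22 over all cells, where the floors differ, and -0.02 with genes above floor and set held constant. A positive rho with Myc in both sets was found for 38 of 66 members, against 43.9% of all genes, and a negative one for 8, against 14.5%. With the balance held constant the rho was 0.03 and -0.03.

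Scores were lower where Top2a, Mki67 and the G2/M score were high, while single genes of division went either way. Top2a, a topoisomerase of dividing cells found in 84.1% of cells, had rho -0.27 in set 1 and -0.23 in set 2, with 42 of 66 members negative in both sets against 22.5% of all genes and 9 positive against 36.0%. Mki67, the proliferation marker Ki-67, had -0.15 and -0.28, with 38 of 66 members negative in both sets against 28.9% and 4 positive against 25.8%. The score of 53 G2/M phase genes had -0.19 and -0.20, and that of 40 S phase genes -0.03 and -0.06. Taken singly, 21 of the 50 G2/M genes with values in both sets had a negative rho in both, against 14.3% of genes that are no members, and 10 a positive one, against 48.7%. Kif23, a kinesin of cell division (-0.23 and -0.21), was among the first, and Ccnb1, cyclin B1 (0.14 and 0.20), among the second. Of 37 S phase genes, 4 were negative and 18 positive in both sets. Holding the balance constant left Top2a at -0.26 and -0.23 and the G2/M score at -0.25 and -0.27. With genes above floor held constant they were -0.38 and -0.36 for Top2a and -0.37 and -0.35 for the G2/M score. Over all cells the G2/M score had -0.19, and -0.0709 with the 14 members that have at most 1 near-identical copy. Values are relative within a cell, so a lower value cannot be told apart from more RNA of other genes.

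Other growth and housekeeping lists were set beside the members. The score of 28 translation factors and other TOP messengers was close to the ribosomal protein score, at rho 0.63 in set 1 and 0.42 in set 2, and 24 of its 28 genes with values in both sets were positive in both, against 48.7% of genes that are no members. With the balance held constant the rho was 0.60 and 0.37. Eif3e and Eif3f, subunits of the initiation factor that binds the small subunit, were the closest (0.34 and 0.49, and 0.34 and 0.44). The elongation factor Eef2, also a TOP messenger, was not (-0.04 and -0.29). Gnb2l1, the small subunit protein RACK1 under its older name, had 0.24 and 0.29, and Fau 0.20 and 0.14.

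Of the lists with short transcripts, the respiratory chain and ATP synthase stood closest (0.52 and 0.63, 70 genes), with 61 of 67 genes positive in both sets. The share was 48.7% over genes that are no members, and 77.1% over those with transcripts under 1000 bases. Transcripts of this list had a median length of 732 bases. Atp5e, an ATP synthase subunit, ranked first among genes that are no members by the smaller of its rho values in the sets (0.52 and 0.57), and Cox5b (0.37 and 0.53) and Atp5j2 (0.36 and 0.37) were among the next. Mitochondrial ribosomal proteins had 0.38 and 0.51 and the proteasome 0.39 and 0.46. With the balance held constant the respiratory chain had 0.38 in both sets, mitochondrial ribosomal proteins 0.18 and 0.24, and the proteasome 0.19 and 0.13. Nucleolar ribosome biogenesis genes, whose products assemble the subunits, were further away (0.20 and 0.11, and 0.17 and 0.19 given the balance), with Npm1 at 0.19 and 0.29 and Nop56 at -0.10 and -0.09. The list for mTOR and TOP regulators had 0.11 and 0.13.

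**Figure D5:**
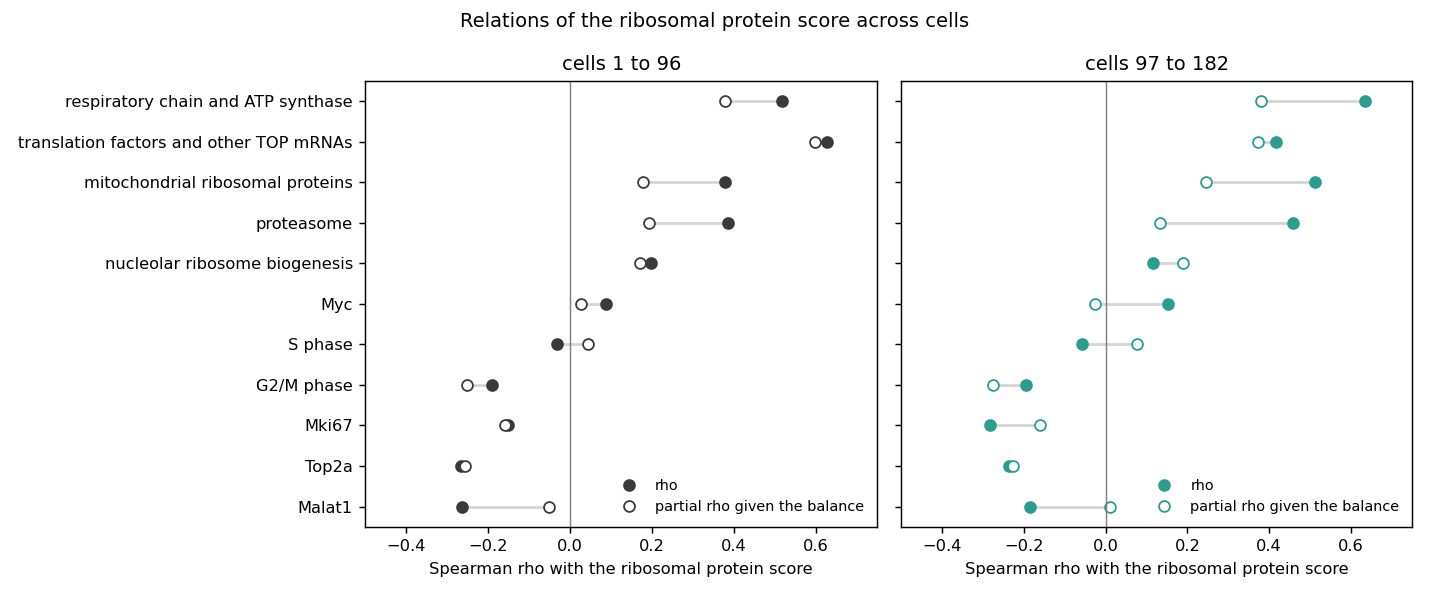
Spearman rho with the ribosomal protein score (horizontal axis) for list scores and single genes (vertical axis), in cells 1 to 96 (left) and cells 97 to 182 (right). Filled points give rho and open points the partial rho with the transcript length balance held constant, which moves Malat1 to -0.05 and 0.01 and leaves Top2a at -0.26 and -0.23.

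Of the 4575 genes that are no members and had a rho in both sets, 14 match a member's sequence. Among the 10 genes closest to the score in both sets, 4 match a member's sequence: Gm5148, Gm13826, Mir682 and Rps15a-ps6. The other six were Atp5e, Cox5b, Atp5j2, Eif3e, the histone gene H3f3a and the chaperonin subunit Cct5. Among the 10 farthest were Psmc4, Son, Sfi1, 2900060B14Rik, Top2a, Rnf214, Grk6, Kif23 and Ythdc1, with rho from -0.30 and -0.35 for Psmc4, a proteasome ATPase, to -0.27 and -0.20 for Ythdc1, a reader of methylated RNA. None of these 10 matches a member.

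Between the column sets, 51 of the 66 members had a higher median of log2(value + 1) in set 1, against 40.2% of all genes with that detection. Of these 5409 genes only 663 were found in at least 50% of cells, against 43 of the 66 members. A gene found in under 50% of a set's cells has a median below 1 there, so many of these comparisons are between values below 1, some of them floors. Rpl10a, with medians of 0 and 0.0413, was among the members higher in set 2. The median difference of set 1 minus set 2 was 0.92 for members and -0.02 for all such genes. By gene, the difference was largest for Rpl39 (4.48), with medians of 96.6 and 3.38, followed by Rps21 (3.30) and Rpl29 (3.13). In set 2 the medians of Rps21 (0.288) and Rpl29 (0.334) were their floors, with detection in 37.2% and 39.5% of cells. Their means were higher in set 2, at 59.5 in set 1 and 87.8 in set 2 for Rps21, and 160 and 173 for Rpl29. The difference was small for Rps25 (0.10), with medians of 17.4 and 16.2. The labels name no batch, so chip, animal and sequencing run cannot be told apart as sources of this difference.

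Introns of ribosomal protein genes are known to hold small nucleolar RNAs, and 13 such rows lay inside 11 members on the same strand. All but 1 were detected in under 10% of cells. Snora70, inside Rpl10, was found in 8 cells, as was Rpl10, with rho 0.64 and 0.53. In the widely detected Rpl13a, the rows Snord32a, Snord33 and Snord35a were found in 1, 1 and 4 cells.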

How the data were processed

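Values were the deposited normalized signal of each gene in each cell, not on a log scale, made by the authors with TopHat2 2.0, Cufflinks 2.2 and Cuffdiff on mm10, per the submitters' processing notes. None of the sources used here gives the starting unit, the filters or the way of normalizing. The table had 17035 rows, with 1 symbol on 2 rows. Detection meant a value of at least 1, shares have exact Clopper-Pearson 95% intervals over cells that cover counting error only, and scores used log2(value + 1). The balance of short and long transcripts was added after the data were seen. Partial rho was computed on ranks. Spread was the residual from a lowess trend (fraction 0.3). Copies were found with blastn 2.17.0 in GENCODE M21 transcripts. Python 3.11.15, scipy 1.17.1 and statsmodels 0.14.6 were used, and the correlation code was tested on simulated data. The members and lists were chosen with earlier results of these data known, and Rps27rt was placed with the copies after its sequence was seen. Members in full were the 5 highest and lowest by median and by residual spread and all paralogs. Other genes were named by preset symbols, the 10 highest and lowest by rho in both sets, and up to 4 per list. Lck, Cd3d, Igj and Sdc1 were named as markers, while Eef2, Nop56, the rows that match a member, the small nucleolar RNAs and the members with extreme relations or set differences were named after their values were seen. A protein table was not used here, and results of some members and other genes are not reported here.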

Additional observations from a re-analysis of the deposited data

How the results depend on the processing

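Over all cells, 110 alternative values were computed, and 93 stayed within 0.1 of a rho or within 1.5 times a count or level. Alternatives with the balance, the copies, the single sets, the few cells with under 1500 genes or the wider start window were chosen after seeing the data. The rho of Myc with the score, 0.22, changed sign with genes above floor and set held constant (-0.0219) and with the balance and set held constant (-0.0153), and was 0.11 with values scaled within sets and 0.0878 in cells 1 to 96. The rho of Malat1, -0.18, was -0.33 with the 14 members that have at most 1 near-identical copy and -0.0023 with the balance and set held constant. The G2/M score, -0.19, was -0.36 with genes above floor and set held constant and -0.0709 with those 14 members. Large against small subunit fell from 0.79 to 0.43 with them, where each score averaged fewer genes. The rho with genes above floor, 0.45, was 0.0317 with the balance and set held constant. Within sets 1 and 2 the rho with genes above floor was 0.36 and 0.38, and 0.13 and -0.0003 with the balance held constant. The median of member medians was 1.02, and 1.95 over core members alone. Members with a pyrimidine run at the start numbered 14, and 38 within 10 bases of it. The causes of these changes were not tested, except that the wider window can only add runs and the core genes leave out low paralogs. The mean rho over pairs of members stayed between 0.07 and 0.15. No paired analysis was possible because all cells form 1 group. Unknown depth and the set floors limit what can be said of genes near their floor.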
